A study of Mus musculus with 8 samples.

Results

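Broad domains of trimethylated lysine 4 of histone H3 (H3K4me3) were examined in the brain of mouse embryos at stage E12.5. The peaks of 4 libraries were merged into 19712 union regions, and 14943 of these had a peak in every library. A region was taken as a broad domain when it had a peak in all 4 libraries and at least 3000 bp under peaks in the mean of the wild type (WT) libraries. The rule selected 387 domains, which is 2.59% of these shared regions. The widths in WT, and presence in every library, therefore chose the domains and are given as a description.

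The WT group had 2 H3K4me3 libraries from control brains without Cre. The double knockout (dKO) group had 2 libraries from brains in which Lats1 and Lats2 had been deleted by Nestin-Cre. The Nestin driver acts in neural progenitors and is inherited by their progeny, and cells outside that lineage are not its target. All animals had a mixed strain background, the antibody was the same in all 4 libraries, and only the dKO group carried Cre. An effect of Cre and of the loss of Lats1 and Lats2 cannot be told apart. The labels do not name the embryo behind each library, and p-values measure only the spread between these libraries, which may be technical.

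H3K4me3 is deposited by the SET1 and MLL methyltransferases at the promoters of active and poised genes, where most marked sites span only a few nucleosomes. A minority of promoters carry a mark that runs on into the gene body. In many tissues such broad domains lie at genes of cell identity and at developmental regulators, and in embryonic cells some of these sites also carry the Polycomb mark H3K27me3. In the Hippo pathway, LATS1 and LATS2 phosphorylate the coactivators YAP and TAZ and so keep them out of the nucleus. Positions are on mm9, and no gene was assigned to any domain because no annotation of that build was used here.

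Between 17367 (dKO replicate 2) and 19486 peaks (WT replicate 1) were called per library. Read depth is unknown for all 4, since the lists give positions and a score but no counts. More depth or a cleaner library also gives more and wider peaks, and its part in any difference below was not tested. dKO replicate 2 had the shortest list and the least sequence under peaks (17.3 Mb, against 19.3 to 21.4 Mb in the other libraries). Chromosome Y peaks were present in 1 library of each genotype.

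Within the domains, H3K4me3 peaks covered 1.45 and 1.50 Mb in WT replicates 1 and 2, and 1.39 and 1.33 Mb in dKO replicates 1 and 2. The median domain had 3472 and 3561 bp under peaks in the WT libraries and 3349 and 3231 bp in the dKO libraries. Both dKO medians lay below both WT medians. As a share of all sequence under peaks, however, the domains took 7.17% and 7.02% for WT against 7.22% and 7.69% for dKO, so that their share was not lower in dKO. The mean WT width ran from 3002.5 to 11234.5 bp, with 290 domains under 4000 bp, 79 from 4000 to 6000 bp and 18 of 6000 bp or more. The mean dKO width ran from 997 to 11000.5 bp.

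Most domains stayed broad in each library. At least 3000 bp lay under peaks in 350 of the 387 domains for WT replicate 1 and 376 for WT replicate 2, and in 294 and 258 for dKO replicates 1 and 2. All 4 libraries reached 3000 bp in 227 domains, while in 45 only the WT pair reached it and no dKO library did. The mean of the dKO libraries was at least 3000 bp in 272 domains (70.3%). Among the other regions with a peak in all 4 libraries, 7 reached a dKO mean of 3000 bp. Broad dKO regions without a peak in a WT library could not be counted. This small number is partly set by the choice on WT widths, and by the use of 1 limit for lists of unlike total width.

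The ratio of the dKO to the WT mean had a median of 93.5%, or -0.10 on the log2 scale, with quartiles of -0.17 and -0.031. The dKO mean was the lower in 331 of the 387 domains (85.5%), where 79.9% of all shared regions had a lower dKO mean. The same median was -0.12 over all regions with a peak in all 4 libraries, and the dKO libraries thus had less sequence under peaks in broad domains and elsewhere. The dKO mean lay within 10% of the WT mean in 264 domains, more than 20% below it in 36 and more than 10% above it in 5. In 201 of the 387 domains (51.9%) both dKO widths were below both WT widths, against 39.1% of all shared regions, and in 15 (3.88%) both were above, against 4.17%. In the other 171 domains the genotypes overlapped. These counts share the WT widths that chose the domains, and nothing is read from their distance to the background. Without dKO replicate 2 the median log2 ratio was -0.063, and without dKO replicate 1 it was -0.13.

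**Figure D1:**
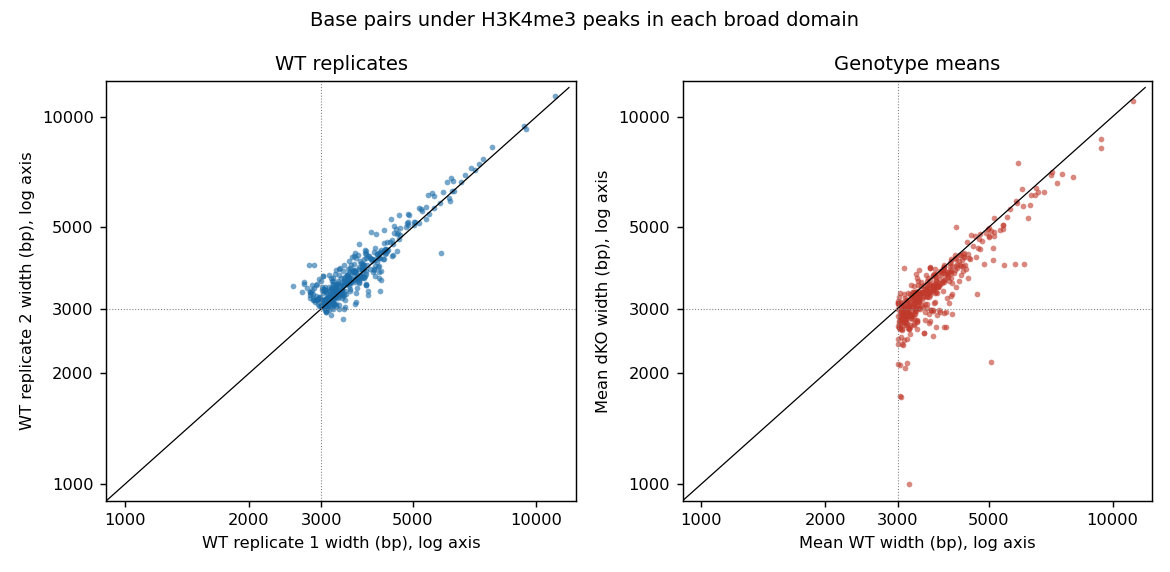
Base pairs under H3K4me3 peaks in each of the 387 broad domains, on log axes in bp; each point is 1 domain, the solid line marks equality and dotted lines mark 3000 bp. The left panel sets WT replicate 2 against replicate 1 and the right panel sets the dKO mean against the WT mean, where most points lie just below the line and a few fall far below it.

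Widths were then compared in libraries whose widths had not set the limit, though a peak in all 4 libraries was still required. With WT replicate 1 alone as the basis, 371 regions had at least 3000 bp. Of these, WT replicate 2 also reached 3000 bp at 339 (91.4%), dKO replicate 1 at 285 (76.8%) and dKO replicate 2 at 252 (67.9%). With WT replicate 2 alone as the basis, 436 regions were chosen, and 339 (77.8%), 297 (68.1%) and 257 (58.9%) reached 3000 bp in WT replicate 1, dKO replicate 1 and dKO replicate 2. The held-out WT library kept more broad regions than either dKO library in both cases. The median log2 ratio of the dKO mean to the held-out WT library was -0.11 and -0.070. With 1 WT library against 2 dKO libraries, this order carries no test of its own. When the regions were chosen on the dKO mean instead, 279 qualified and the median log2 ratio was still below 0, at -0.065.

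The ratio was not lowest in broad domains. With regions classed on WT replicate 1 and set against WT replicate 2, the median log2 ratio of dKO replicate 1 was -0.069 in the class of 3000 to 4000 bp, -0.081 from 2000 to 3000 bp and -0.11 from 500 to 1000 bp. For dKO replicate 2 the same medians were -0.15, -0.17 and -0.26. With regions classed on WT replicate 2 and set against WT replicate 1, the medians for these 3 classes were -0.031, -0.025 and -0.047 for dKO replicate 1, and -0.10, -0.11 and -0.20 for dKO replicate 2. The class of 500 to 1000 bp had the lowest of the 3 ratios in each case, and the other 2 did not keep 1 order. The few regions of at least 6000 bp had -0.10 and -0.15 when classed on WT replicate 1, and -0.037 and -0.13 when classed on WT replicate 2, so the ratio did not rise steadily with width. The difference in bp was larger in wider classes. By the mean of WT, its median was -74.5 bp from 500 to 1000 bp, -168.5 bp from 2000 to 3000 bp, -229 bp from 3000 to 4000 bp and -445 bp in the 18 domains of at least 6000 bp. These medians are over regions of the same libraries and carry no p.

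**Figure D2:**
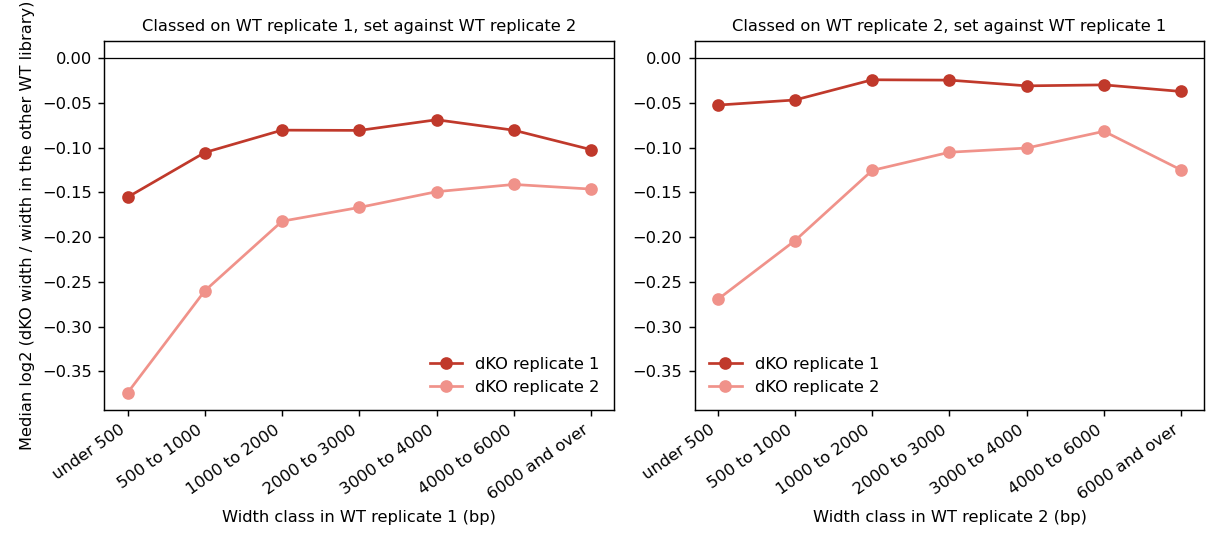
Median log2 ratio of each dKO library to the WT library that was not used for the classes, by width class in bp (left, classed on WT replicate 1; right, classed on WT replicate 2). Both dKO libraries lie below 0 in every class, dKO replicate 2 lower than dKO replicate 1, and the lowest ratio of each line is in the class under 500 bp; the lines do not rise steadily with width.

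A fit of log2 widths over all 14943 shared regions, each library centred on its own median, called none of the 387 domains as narrower or wider in dKO (limma, Benjamini-Hochberg adjusted p under 0.05 over all regions). Over all shared regions 0.0% were called narrower and 0.00669% wider. The lowest adjusted p among the domains was 0.184 by limma. At an unadjusted p under 0.05, 24 of the 387 domains were narrower and 16 wider, where all shared regions gave 4.85% and 2.82%. Since WT widths chose the domains, these shares are descriptions. Centring moved the median of all regions by 0.14 on the log2 scale and turned the sign for the domains. The median change was -0.10 uncentred and 0.044 centred (0.023 over all shared regions after centring). Quantile normalization also gave 0 calls in both directions. On centred widths both dKO libraries were above both WT libraries in 137 domains (35.4%, background 23.7%) and below in 59 (15.2%, background 16.3%). The direction of the typical domain therefore depends on the scaling. With a library left out, the spread came from the pair of the other genotype alone. Neither calls nor a lack of calls in such a fit are read as results.

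Where the missing sequence lay was read from the peak edges. Each union region is made of the bases under peaks in a library, the bases between the region's ends and the first or last peak, and the gaps between peaks. The ends not covered came to a mean of 185 and 118 bp per domain in WT replicates 1 and 2, and 332 and 438 bp in dKO replicates 1 and 2. The genotypes did not overlap in this value. The same held for regions of 2000 to 3000 bp, with means of 174, 105, 259 and 378 bp in the same order. Shared regions under 3000 bp likewise kept the genotypes apart, at 147, 95.5, 182 and 277 bp. WT widths chose the domains, so the separation is a description and is not read as a trait of the domains. Left and right ends contributed alike, with medians of 41.0 bp on each side in WT replicate 1 and 131 and 132 bp in dKO replicate 2. These sides follow the coordinates, and no strand was assigned, so they do not tell upstream from gene body. The outer ends made up 78.9% of the mean difference of -296 bp between dKO and WT, 38.7% on the left and 40.3% on the right. Both ends lay further in for dKO in 231 domains (59.7%), a share that was also 59.7% among regions of 2000 to 3000 bp. At 200 bp inward from the ends, 84.4% and 92.0% of domain ends were under a peak in WT and 73.5% and 62.5% in dKO. At 1000 bp inward these values were 97.0%, 99.5%, 95.0% and 92.0%.

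**Figure D3:**
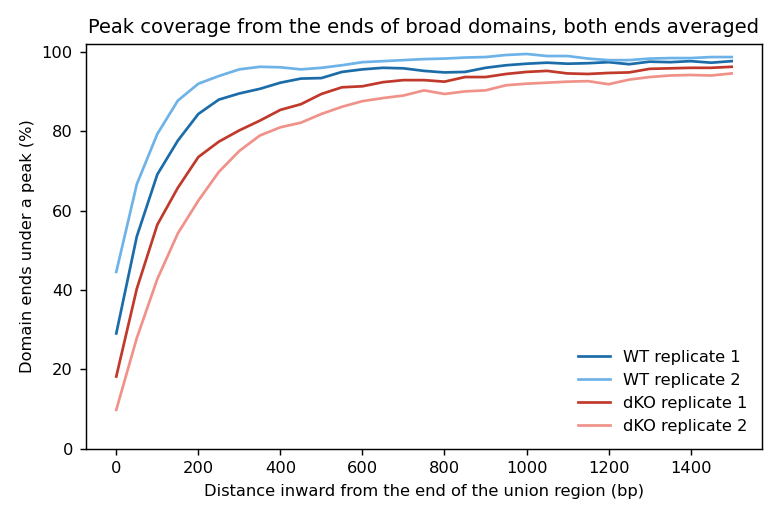
Share of domain ends under a peak (%) against the distance in bp inward from the ends of the union region, averaged over both ends of the 387 domains. The lines of the WT libraries lie above those of the dKO libraries at each end, by most near the ends, and all 4 lie between 92.0% and 99.5% at 1000 bp.

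Internal gaps made up the other 21.1% of the difference. The mean per domain was 118 and 59.0 bp in the WT pair against 124 and 177 bp in the dKO pair, so WT replicate 1 and dKO replicate 1 had nearly equal values and the difference of 62.3 bp rested on the other 2 libraries. Leaving out WT replicate 2 gave 32.8 bp, and leaving out dKO replicate 2 gave 35.9 bp. In regions of 2000 to 3000 bp gaps made up 11.0% of a mean difference of -201 bp, but 6.89% when WT replicate 2 was left out and 5.46% when dKO replicate 2 was. In the broad domains the share was 14.1% and 16.6% with these libraries left out. As a share of the span from first to last peak, gaps took 3.05%, 1.50%, 3.34% and 4.89% in broad domains (WT replicates 1 and 2, then dKO replicates 1 and 2) and 2.09%, 1.09%, 1.97% and 3.48% in the class of 2000 to 3000 bp. No gap was under 101 bp. The median gap ranged from 157 to 187 bp over the 4 libraries. Regions were split wherever no library had a peak, so every base of a gap lay under a peak of another library. Few gaps could therefore lie where none of the other libraries covered the gap in full, and nothing is read from their number. These were 1 of 214 gaps for WT replicate 1, 1 of 117 for WT replicate 2, 5 of 206 for dKO replicate 1 and 3 of 281 for dKO replicate 2.

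An unbroken peak was called in 220 and 291 domains for WT (56.8% and 75.2%) against 222 and 181 for dKO (57.4% and 46.8%), and the groups overlapped. They also overlapped among regions of 2000 to 3000 bp, with 76.6% and 86.6% for WT against 78.8% and 68.8% for dKO. All 4 libraries had a single peak in 104 domains (26.9%), and 30 were in pieces in every library. With peaks up to 200 bp apart joined, 322 and 363 domains for WT against 313 and 282 for dKO were unbroken. The genotypes did not overlap then, but WT replicate 1 (83.2%) and dKO replicate 1 (80.9%) were close. The joined count is not given here for other regions, so it is not read as a trait of the domains. A single peak in both WT libraries with pieces in both dKO libraries was seen in 27 domains (6.98%), and the reverse in 5 (1.29%). Among regions of 2000 to 3000 bp these shares were 3.96% and 1.06%, and over all shared regions 1.31% and 0.535%. WT widths chose the domains, and nothing is read from these counts. The bases under peaks of all 4 libraries made up a median of 82.5% of the union region (quartiles 73.6% and 87.2%), and this common core was under 50% in 11 domains.

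**Figure D4:**
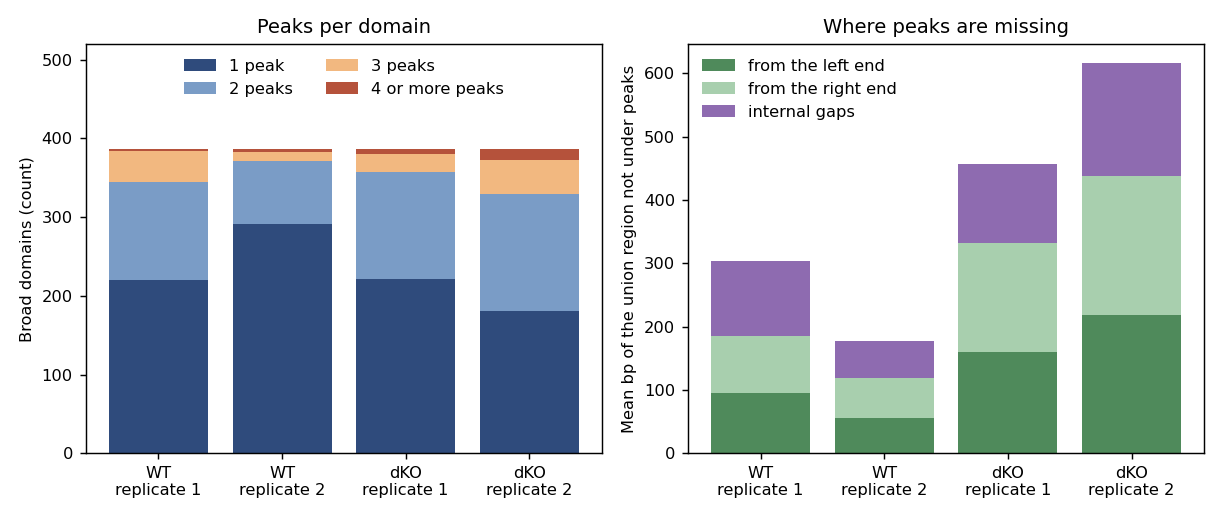
Left, number of broad domains called as 1, 2, 3 or at least 4 peaks in each library; right, mean bp per domain of the union region that is not under peaks, split into the left end, the right end and internal gaps. The uncovered ends are longer in both dKO libraries than in both WT libraries, while the gaps of WT replicate 1 and dKO replicate 1 are about equal.

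The domains with the most negative centred change had low-ranking peaks in several cases. The domain at chr11:21895562-21898944 had 3011 and 3383 bp under peaks in the WT pair against 1443 and 551 bp in the dKO pair (log2 change -1.70, SE 0.36). WT replicate 2 had it as an unbroken peak, and dKO replicate 2 kept only a peak of 551 bp. Its best peak stood at score percentile 25.6 and 43.8 for WT, and at 18.8 and 13.9 for dKO, each within its own list. The domain at chr11:84334211-84340348 had 5873 and 4245 bp in the WT pair against 2281 and 2004 bp in the dKO pair (-1.08, SE 0.17). Its WT replicates themselves differed by 1628 bp, the most of any domain. All 4 libraries kept a peak in its right part, of 2007, 2096, 1239 and 1478 bp, and the first peak began 1895 and 2139 bp into the region in dKO, against 0 and 264 bp in WT. In WT replicate 2, however, only peaks of 231 and 267 bp (score percentiles 8.88 and 0.14) lay before 1953 bp. The left part was thus largely uncovered in that WT library as well. At chr3:101814162-101817394 the widths were 3021 and 3105 bp in the WT pair against 2230 and 1218 bp in the dKO pair (-0.75, SE 0.22). The size of the change rested on single dKO libraries at this domain, with -1.13 without dKO replicate 1 and -0.38 without dKO replicate 2, and at chr11:21895562-21898944, with -2.33 and -1.07.

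In the other 3 domains of this rank, most of the difference lay at 1 end. At chr14:60996614-60999888 WT had 2859 and 3218 bp and dKO 1831 and 1638 bp (-0.67, SE 0.079). Its right end lay 1271 and 1152 bp short of the region's end in dKO and 0 and 57 bp short in WT. The left end was short by 173 and 485 bp in dKO and by 39 and 0 bp in WT, while the best peak ranked alike (percentile 78.1 and 63.4 in WT, 77.3 and 76.1 in dKO). The domain at chr3:88010425-88016726 had 5945 and 6233 bp in the WT pair against 3936 and 3993 bp in the dKO pair (-0.48, SE 0.080), with the right end 2231 and 1500 bp short in dKO and 130 and 0 bp short in WT. At chr1:64164836-64168037 it was the left end, 938 and 988 bp short in dKO and 0 and 19 bp in WT (right end 22 and 47 bp, 0 and 7 bp), with widths of 3202 and 3067 bp in the WT pair against 2079 and 2060 bp in the dKO pair. In these 3 domains the replicates of a genotype differed by less than the genotypes did. None passed the limma threshold over all regions.

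In the domains with the largest positive centred changes, dKO peaks ran across gaps of WT or on to a further right end. The domain at chr8:11001977-11010173 had 5561 and 6193 bp in the WT pair against 7684 and 7299 bp in the dKO pair (log2 change 0.49, SE 0.076). Gaps took 2027 and 1986 bp of it in WT and 124 and 759 bp in dKO, and dKO replicate 1 had a peak of 6726 bp across the place where both WT libraries had a break. At chr1:82280026-82284240 the widths were 2975 and 3228 bp in the WT pair against 3819 and 3904 bp in the dKO pair (0.46, SE 0.083), with gaps of 1161 and 773 bp in the WT pair against 394 and 231 bp in the dKO pair. In both domains all dKO values lay above all WT values. The domain at chr9:102619197-102624360 had 4096 and 4216 bp in WT, called as 2 peaks in each library, and 5036 and 4950 bp as 1 unbroken peak in dKO (0.41, SE 0.075). Its right end lay 490 and 743 bp short of the region's end in WT and 31 and 0 bp short in dKO. At chr10:83901020-83904893 WT had 3360 and 3278 bp in 2 peaks and dKO 3811 and 3637 bp in an unbroken peak (0.31, SE 0.077). The remaining 2 of this rank did not separate the genotypes as clearly: chr13:48356413-48360636 had 2805 and 3957 bp in the WT pair against 3716 and 3920 bp in the dKO pair, and chr8:94877271-94881502 had 3350 and 3328 bp in the WT pair against 3886 and 3395 bp in the dKO pair.

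The widest domain, chr7:86643765-86655114, was an unbroken peak of 11119 and 11350 bp in WT. In dKO the same stretch was called as 2 peaks, of 10415 and 706 bp in replicate 1 and 5678 and 5202 bp in replicate 2, with 11121 and 10880 bp in all. A break of 129 bp in dKO replicate 1 and of 151 bp in dKO replicate 2, at different places, thus changed the number of peaks but hardly the width. The next in width were chr5:111844877-111854569 (9318 and 9410 bp for WT, 8675 and 7770 bp for dKO) and chr13:83857030-83866809 (9456 and 9262 bp, 8145 and 9235 bp). The latter was called as 7 peaks in dKO replicate 1 and 2 in dKO replicate 2, against 3 and 4 in WT. As many as 7 peaks were also called in dKO replicate 2 at chr1:42741047-42749991, with 5 and 4 in WT and 4 in dKO replicate 1, and a common core of 58.0%. Replicates of a genotype therefore differed in the number of pieces at the same place. At chr5:123585294-123590668 the widths were 5042 and 5172 bp in the WT pair against 4326 and 3841 bp in the dKO pair, with 5 peaks in dKO replicate 2 and 2 in each other library.

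WT replicates differed most, after the chromosome 11 domain above, at chr13:48356413-48360636, at chr18:55148883-55152989 (2883 and 3947 bp for WT, 3674 and 2941 bp for dKO) and at chr2:152220258-152225132 (3956 and 4865 bp, 4206 and 3481 bp). The genotypes overlapped at the last 2. Over all 387 domains the median absolute difference was 161 bp between the WT replicates and 213 bp between the dKO replicates. Between genotypes it was 212 bp (WT replicate 1 and dKO replicate 1) to 378 bp (WT replicate 2 and dKO replicate 2). The smallest difference between genotypes was thus no larger than that within dKO.

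Some domains lay end to end. On chromosome 13, 3 domains followed each other from 83857030 to 83881309 with breaks of 136 and 118 bp between them, together 24280 bp long. Peaks covered 22758 and 23254 bp of this run in WT and 22103 and 22164 bp in dKO. The middle domain, chr13:83866946-83874131, was an unbroken peak in every library (7100 and 7179 bp for WT, 7110 and 7007 bp for dKO) with a common core of 97.5%, and the last, chr13:83874250-83881309, had 6202 and 6813 bp in the WT pair against 6848 and 5922 bp in the dKO pair. The dKO values overlapped those of WT in these last 2 domains. The next closest pairs were 138 bp apart on chromosome 13 (78331758 to 78339899, 7199 and 6917 bp under peaks for WT, 7104 and 6934 bp for dKO) and 142 bp apart on chromosome 5 (123585294 to 123593973, 8171 and 8317 bp for WT, 7410 and 6598 bp for dKO). In all, 24 domains stood in 11 groups with less than 10000 bp between neighbours. Because regions were split wherever no library had a peak, such neighbours count as separate domains. With peaks within 1000 bp merged into a region, 622 regions met the same rule.

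**Figure D5:**
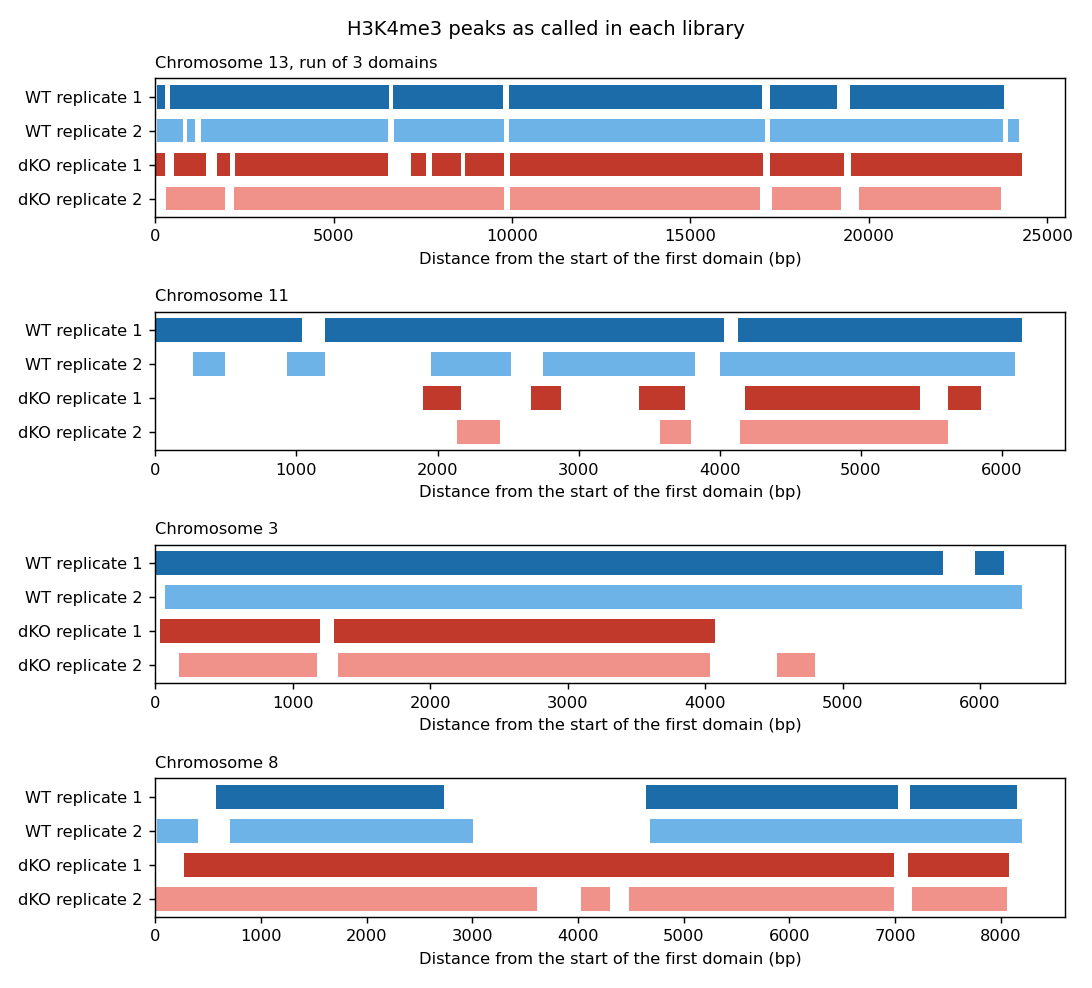
Peaks as called in each library, as bars against the distance in bp from the start of the first domain, for the chromosome 13 run of 3 domains and for the domains on chromosomes 11 (84334211), 3 (88010425) and 8 (11001977). The run is covered almost throughout in all 4 libraries. The left part of the chromosome 11 domain is missing in dKO and mostly missing in WT replicate 2. The dKO libraries lack most of the right part of the chromosome 3 domain, and fill most of the WT gap on chromosome 8.

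Many broad domains had a further peak close by. Another union region lay within 1000 bp of 174 domains (45.0%), of 377 of the 1693 shared regions of 2000 to 3000 bp (22.3%) and of 26.2% of all shared regions under 3000 bp. A region that at least 1 library lacked lay within 1000 bp of 107 domains (27.6%), against 13.5% and 11.0%. Another broad domain within 100000 bp was found for 42 domains (10.9%), while 5.79% of regions of 2000 to 3000 bp had a broad domain that near. These shares are descriptions, since no test of position was run.

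Chromosome Y had no region with a peak in all 4 libraries, so the rule could select no domain there. Every other chromosome held broad domains. They made up 4.15% of the shared regions on chromosome 14 (22 of 530), 4.12% on chromosome 18 (17 of 413) and 3.87% on chromosome 3 (29 of 750), and were scarcest on chromosome X (4 of 470, 0.851%) and chromosome 6 (9 of 747).

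Width and peak score were nearly unrelated among the domains. The score of the best peak in each domain, ranked within its own list because the scale is not named, had a median percentile of 81.3 and 79.0 for WT against 79.0 and 79.4 for dKO. Regions of 2000 to 3000 bp had much the same medians, 79.7, 79.4, 78.6 and 77.8. The 79 domains of 4000 to 6000 bp had higher ones, 84.6 and 85.3 for WT against 86.7 and 82.0 for dKO. The 18 domains of at least 6000 bp had lower ones, 72.4 and 71.2 for WT against 68.2 and 67.6 for dKO. Shared regions of 500 to 1000 bp ranked far lower, at 43.3 and 43.8 for WT against 38.8 and 35.2 for dKO. The weak relation of width and score thus holds within the domains, not over all widths. Spearman's rho between width and percentile over the 387 domains was -0.0065 and 0.058 for WT, and 0.091 and 0.13 for dKO. Of the 100 highest-scoring peaks in each list, 9 and 10 for WT against 5 and 7 for dKO lay in broad domains. Of the 1000 highest-scoring, 53 and 53 for WT against 54 and 61 for dKO did. The order of the genotypes thus depended on the cutoff. The domains held 3.08% and 2.61% of all peaks for WT and 3.29% and 3.85% for dKO. Widths of the domains were ranked similarly by all libraries, with rho of 0.83 between WT replicates, 0.86 between dKO replicates and 0.76 to 0.77 across genotypes. The points of each rho share their libraries, and domains are not replicates.

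The limit of 3000 bp fell in a continuous range of widths. Just inside it were chr1:84834505-84837586 (WT mean 3002.5 bp, dKO mean 3000.5 bp), chrX:17738655-17741869 (3008.5 and 2873 bp) and chr5:123793614-123796926 (3008.5 and 3100.5 bp). Just outside it were chr4:136389868-136392954 (2993 and 2540 bp), chr1:13361942-13365028 (2991.5 and 3008.5 bp) and chr6:38823865-38827060 (2987.5 and 2783.5 bp).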

How the data were processed

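Each H3K4me3 library had a list of peaks deposited by the authors, with position and a score on a scale that the labels do not name (lowest value 13). MACS2 2.1.1.20160309, bedtools, BWA 0.7.12-r1039, SAMtools, Picard 2.6.0 and R 2.14.0 are named, with build mm9, in the submitters' processing notes; the role of each tool, thresholds and any use of input chromatin are not given in the sources used here. Another 4 input libraries were not analysed here. Peaks were merged with bedtools 2.31.1 (distance 0), and widths summed per region and library with Python 3.11.15 (pandas 2.3.3, numpy 2.4.6). Starts are counted from 1. The score was used only as a rank within a list.

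Log2 widths over regions with a peak in all 4 libraries were centred per library. The fit used limma 3.58.1 in R 4.3.3, with empirical Bayes and a variance trend, and a Benjamini-Hochberg adjusted p under 0.05 as threshold. Simulated widths with known changes were used to check it. These changes were larger than those of nearly all domains, so the check does not show whether smaller changes would be called. Named domains were the 6 widest, the 6 changes at either extreme, the 4 with most peaks, the 4 with the largest WT replicate difference, the 4 closest pairs and the 3 on each side of the limit. Members, rules and alternatives were chosen with earlier results of these data known. Depth is unknown, so no interval for counting error is given. Plots used matplotlib 3.10.9.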

Additional observations from a re-analysis of the deposited data

How the results depend on the processing

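The number of broad domains was 387, and 897 with a limit of 2500 bp, 97 with 4000 bp and 622 with peaks within 1000 bp merged; with a library left out it was 371 to 436. Their median log2 width ratio was -0.10. It was -0.065 for regions chosen on the dKO mean, -0.14 with nearby peaks merged, 0.044 with each library centred, and -0.13 to -0.063 with a library left out. Merged regions with a dKO mean of at least 3000 bp numbered 418, against 272 domains as defined, and this count was 258 to 294 with a library left out. Unbroken peaks in all 4 libraries were found in 104 domains, in 229 with peaks up to 200 bp apart joined, and in 114 to 140 when a library was not required. Calls by limma were 0 narrower and 0 wider. They were 2 narrower among the 622 merged regions, and the share over all merged regions is not given here. A fit with a library left out takes its spread from the pair of the other genotype alone. Neither calls nor a lack of calls in such a fit are counted. These fits differed in their calls, and the cause was not tested. Only effect sizes are given for 5 named domains, which were picked by their calls without dKO replicate 1. The share of all shared regions called in that fit is not given here. Without that library, the log2 change was -2.33 on chromosome 11 from 21895562 (main fit -1.70) and -1.13 on chromosome 3 from 101814162 (-0.75). On chromosome 14 from 60996614 it was -0.68 (-0.67). On chromosome 8 from 11001977 it was 0.52 (0.49), and on chromosome 1 from 82280026 it was 0.54 (0.46). With the replicate number as a replicate block, limma calls were also 0 and 0. At an unadjusted p under 0.05 by limma, 24 were narrower and 13 wider, and the share over all regions is not given here. After centring, deviations of same-numbered libraries correlated at -0.059 over 14943 regions. Centring removes any shift common to a whole library, so this value cannot tell whether the number pairs the libraries. Choosing regions on 1 WT library and fitting the other 3 was an alternative added after the data were seen. Its spread came from the dKO pair alone, so its outcome is not read as a result either.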
